A study of Mus musculus with 16 samples.

Results

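B4galnt2 and 9 other glycosyltransferase genes of the mucosa (B4galnt1, B4galnt3, B4galnt4, Fut1, Fut2, Fut4, St6galnac1, Gcnt3 and C1galt1) were examined in the colon of pups born by C-section (CSD) or by vaginal delivery (VD). They were found by gene name on the array, where the 10 genes had 19 probes among 56366 probes of 36711 genes. All 10 genes passed the filter on dim probes. The study asked how CSD changes the gut barrier and its crosstalk with the microbiota. The present arrays held total RNA of whole colon taken at weaning from RjOrl:SWISS mice, an outbred stock kept under specific pathogen-free conditions, with 1 array per pup. CSD pups were removed by hysterectomy at the end of gestation and nursed by foster mothers that had delivered vaginally, and VD litters were exchanged between mothers, so that pups of both groups were raised by a foster mother. No engineered allele and no agent is named for these pups, and what limits the groups as a model is their origin in 4 litters of an outbred stock, whose genotypes were not analysed here.

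The 8 CSD pups comprised 4 of each sex, the 8 VD pups 2 females and 6 males, and each delivery mode was sampled in 2 litters. The litter of mother 3 (CSD pups 3, 5, 8 and 9) and that of mother 4 (CSD pups 1, 2, 6 and 7) had 2 females and 2 males each. Mother 5 gave 5 VD pups (4, 5, 9, 10 and 11) and mother 6 gave 3 VD pups, all males (6, 7 and 8). Since each litter belonged to 1 delivery mode, mode and litter cannot be told apart, and p-values measure the spread between pups of these litters. Between 58.7% and 64.9% of the spots of an array lay well above background, and 0 spots were saturated. The number of arrays and litters limits the precision of all values. Because whole colon was hybridised, fewer cells of a type and less RNA per cell cannot be told apart in any of the results.

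Mucins and membrane proteins of the colon carry O-glycans, which are begun on serine or threonine, built into a core, extended, and closed with fucose, sialic acid or N-acetylgalactosamine. B4galnt2 adds N-acetylgalactosamine to sialylated chains and so makes the Sda (Cad) antigen, which is abundant on the mucus and epithelium of the large intestine. In mice, inherited variants of B4galnt2 are known that move its expression from the intestinal epithelium to the endothelium of blood vessels. Among its relatives, B4galnt1 makes gangliosides, and B4galnt3 and B4galnt4 make the LacdiNAc group on glycoproteins. Fut1 and Fut2 make the H antigen and Fut4 makes Lewis x structures. C1galt1 and Gcnt3 build the cores of mucin glycans, and St6galnac1 closes a chain early with sialic acid.

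B4galnt2 was measured by a pair of probes of 60 bases, both to the minus strand of chromosome 11 and to the same transcript. The upstream probe (A_51_P404405, base 909 of the transcript) lies at chr11:95730586-95730645 and the downstream probe (A_55_P1956147, base 3957) at chr11:95724942-95725001 in mm9, the build of the array files, with 5584 bases between them. Each has a GC content of 45% and 1 reading frame without a stop. Their sequences are given because all B4galnt2 values rest on them. The upstream probe is printed whole and the downstream probe by its first 30 bases, 5′ to 3′ as on the array.
A_51_P404405: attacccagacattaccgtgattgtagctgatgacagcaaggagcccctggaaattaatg
A_55_P1956147: tacagcttttgtgacatggtgagctttcat

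B4galnt2 was high in every VD pup, and with either probe 7 of the 8 CSD pups lay under the lowest VD pup, 5 of them near the floor of the array with the downstream probe. With the downstream probe, the VD pups had log2 intensities of 10.88, 10.78, 11.27, 11.34 and 10.47 in the litter of mother 5 (pups 9, 10, 5, 4 and 11) and 11.13, 11.91 and 11.44 in that of mother 6 (pups 7, 8 and 6). The CSD pups of mother 4 had 6.88, 6.20, 6.56 and 6.36 (pups 1, 2, 6 and 7). Those of mother 3 had 6.36, 11.62, 9.82 and 9.34 (pups 8, 3, 5 and 9). Thus the whole litter of mother 4 and pup 8 of mother 3 lay near the floor of the array, pups 5 and 9 lay between, and CSD pup 3 was as high as the VD pups. The downstream probe was well above background in 5 of 8 CSD pups and in 8 of 8 VD pups, so the level of CSD pups 2, 7 and 8 is only bounded from above.

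The upstream probe showed the same order of litters. It had 6.82, 6.68, 6.99, 6.99 and 6.76 in VD pups 9, 10, 5, 4 and 11 and 7.02, 7.32 and 6.92 in VD pups 7, 8 and 6. CSD pups 1, 2, 6 and 7 had 6.02, 6.34, 5.93 and 6.12, and CSD pups 8, 3, 5 and 9 had 6.03, 7.23, 6.27 and 6.40. CSD pup 3 was the only CSD pup in which this probe was well above background (1 of 8, against 8 of 8 VD pups) and the only one inside the VD range. Pups 5 and 9, which were intermediate with the downstream probe, were here among the values not above background. The CSD minus VD difference, adjusted for sex, was -0.70 (SE 0.15) with the upstream probe and -3.50 (SE 0.70) with the downstream probe, on the log2 scale of background-corrected intensity. Since 7 of 8 and 3 of 8 CSD values were not well above background, these are differences of measured intensities, and their sizes are not comparable between the probes. Over the 16 pups the values of the probes had a Pearson r of 0.91, with 0.83 within the 8 CSD pups (Spearman rho 0.40) and 0.90 within the 8 VD pups. These are descriptions over pups that share litters and arrays.

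**Figure D1:**
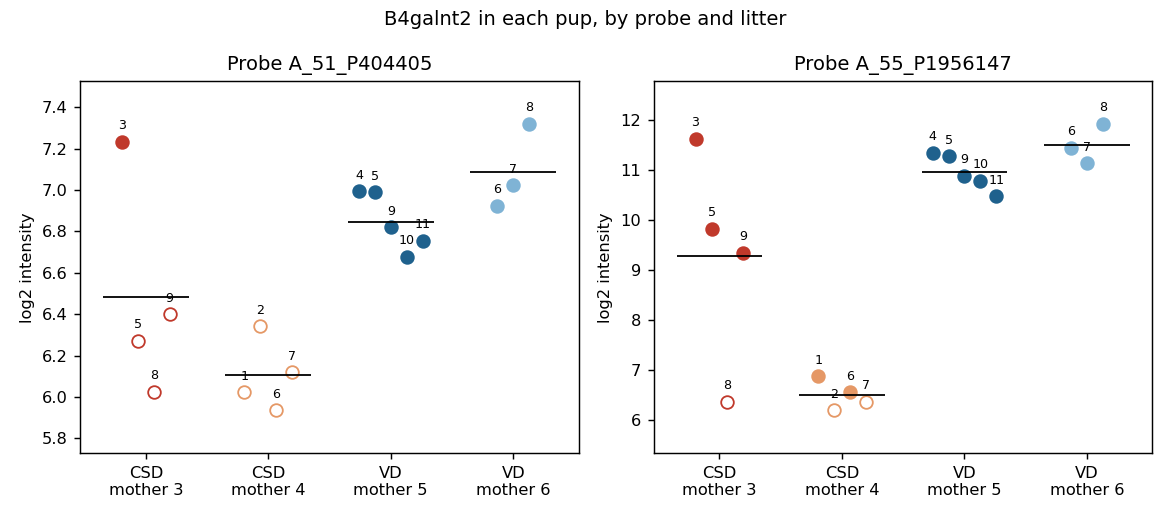
B4galnt2 log2 intensity in each pup (points, with the pup's number) by litter, for the upstream probe (left) and the downstream probe (right, with another scale); open points mark arrays on which the probe was not well above background and lines are litter means. The 4 pups of mother 4 and pup 8 of mother 3 lie between 6.20 and 6.88 with the downstream probe, and CSD pup 3 (11.62) lies within the VD range.

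Averaged over its probes, B4galnt2 reached 7.09 ± 1.21 on the log2 scale among CSD pups and 9.04 ± 0.31 among VD pups (SD, n = 8 each), and its sex-adjusted log2 fold change was -2.10 (SE 0.42). As with the single probes, that value is a difference of measured intensities, since CSD values near the floor enter it. The 4 litters stood in the order mother 4 (6.30 ± 0.10, SD, n = 4), mother 3 (7.88 ± 1.32, SD, n = 4), mother 5 (8.90 ± 0.24, SD, n = 5) and mother 6 (9.29 ± 0.29, SD, n = 3). The spread within the litter of mother 3 exceeded that of any other litter, since its pups ran from 6.19 to 9.43. In the authors' gene matrix B4galnt2 was between 4.39 and 5.03 in the pups of mother 4 and between 8.05 and 9.36 in the VD pups, with 9.10, 7.27, 4.58 and 7.19 in CSD pups 3, 5, 8 and 9. The matrix thus showed the same low pups. B4galnt2 was the only one of the 10 genes under an adjusted p of 0.05 between CSD and VD pups (1 of 10), where 1.25% of all genes were (0.548% lower and 0.706% higher in CSD), and its probes were the only ones of the 19 (1.74% of all probes). The genes had been chosen by their values in this very contrast, so these counts describe the choice and nothing is read from them.

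The difference between litters of 1 delivery mode had no part in the choice of genes and was tested. Between the CSD litters, B4galnt2 was higher in the litter of mother 3 by 1.58 (SE 0.38) on the log2 scale, which did not pass with adjustment over all genes (adjusted p = 0.181, limma; two-sided exact permutation p = 0.143, of which the smallest possible is 0.0286). Without CSD pup 8 the difference was 2.08 (adjusted p = 0.00419, limma), so that pup decides the call. The downstream probe alone gave 2.79 (SE 0.63, adjusted p = 0.146, limma). In the litter of mother 4, 0 of 4 pups were well above background with the upstream probe and 2 of 4 with the downstream probe. The litter differences in CSD are thus differences of measured intensities against a litter near the floor. Between the VD litters the difference of mother 5 minus mother 6, also adjusted for sex, was -0.69 (SE 0.41, adjusted p = 0.587, limma). The plain difference of the VD litter means was -0.40 (exact permutation p = 0.0893, without adjustment for sex), and mother 6 had males only. In the CSD litters 32 of all genes (0.0872%) were under an adjusted p of 0.05 and in the VD litters 321 genes (0.874%), and 0 of the 10 glycosyltransferases were among either.

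A difference between the sexes was not detected in B4galnt2, with females minus males at 0.59 (SE 0.42, adjusted p = 0.852, limma). Without CSD pup 3 this difference was 0.23. The interaction of delivery and sex was 0.76 (SE 0.85, adjusted p = 0.981, limma). The males alone gave a CSD minus VD value of -2.37, and each slide alone, with 4 CSD and 4 VD pups, gave -2.16 and -2.05. With males only, slide 2 alone, litter means as samples, or the number in the titles as a block, 0 of all genes were called, so that B4galnt2 was not under an adjusted p of 0.05 there. Without the litter of mother 3 the value was -2.77 and without that of mother 4 it was -1.35. The size moved with the probe (-0.70 to -3.50) and with the background correction, up to -3.74 with scanner-corrected intensities.

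The other 9 genes varied much less between the groups, with sex-adjusted log2 fold changes between -0.15 (B4galnt1) and 0.26 (Fut4). Among the relatives of B4galnt2, B4galnt1 was at 7.48 ± 0.09 in CSD and 7.62 ± 0.09 in VD pups (SD, n = 8 each), and 6 of 8 CSD pups lay under the lowest VD pup. Its 4 probes gave -0.02 (SE 0.06), -0.09 (SE 0.04), -0.17 (SE 0.06) and -0.30 (SE 0.12), and the probe at -0.09 was well above background on 0 of 16 arrays. B4galnt3 had means of 7.25 ± 0.12 and 7.26 ± 0.10 (SD, n = 8 each) and a difference of 0.00 (SE 0.06), although its probes lay on opposite sides (-0.10 and 0.10). B4galnt4 had means of 6.61 ± 0.08 and 6.67 ± 0.04 (SD, n = 8 each) and a difference of -0.06 (SE 0.04), and 1 of its probes (A_52_P97889) was above background in 1 of 16 pups.

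Of the fucosyltransferases, Fut1 and Fut2 had CSD minus VD values of -0.03 (SE 0.04) and 0.00 (SE 0.08). Fut1 ran from 6.86 to 7.25 in CSD and from 6.95 to 7.12 in VD pups, and Fut2 from 7.53 to 8.21 and from 7.62 to 7.92. In both genes the CSD values ran to both sides of the VD range. Fut4 was at 12.10 ± 0.42 in CSD and 11.80 ± 0.31 in VD pups (SD, n = 8 each), a difference of 0.26 (SE 0.18). That difference fell to 0.13 without CSD pup 8 and ran from -0.09 to 0.60 over the 37 alternatives. CSD pups 3 (12.80) and 8 (12.70), littermates of mother 3, were the highest in Fut4.

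Of the genes that build or close mucin chains, Gcnt3 had 10.41 ± 0.11 in CSD and 10.43 ± 0.20 in VD pups (SD, n = 8 each) and C1galt1 9.88 ± 0.17 and 9.82 ± 0.25 (SD, n = 8 each), with differences of -0.01 (SE 0.08) and 0.05 (SE 0.11). St6galnac1 had 9.63 ± 0.11 in CSD and 9.59 ± 0.50 in VD pups (SD, n = 8 each). VD pup 5 stood apart with 10.78, where the next VD pup had 9.59, and without that pup the difference of -0.05 (SE 0.16) turned to 0.17. The probes of St6galnac1 disagreed. A_55_P2118604 was at 8.90 in VD pup 5 and between 6.39 and 6.74 in all other pups, while A_55_P2118609 (CSD minus VD 0.31, SE 0.10) had 12.65 in that pup and a VD range of 11.85 to 12.65.

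**Figure D2:**
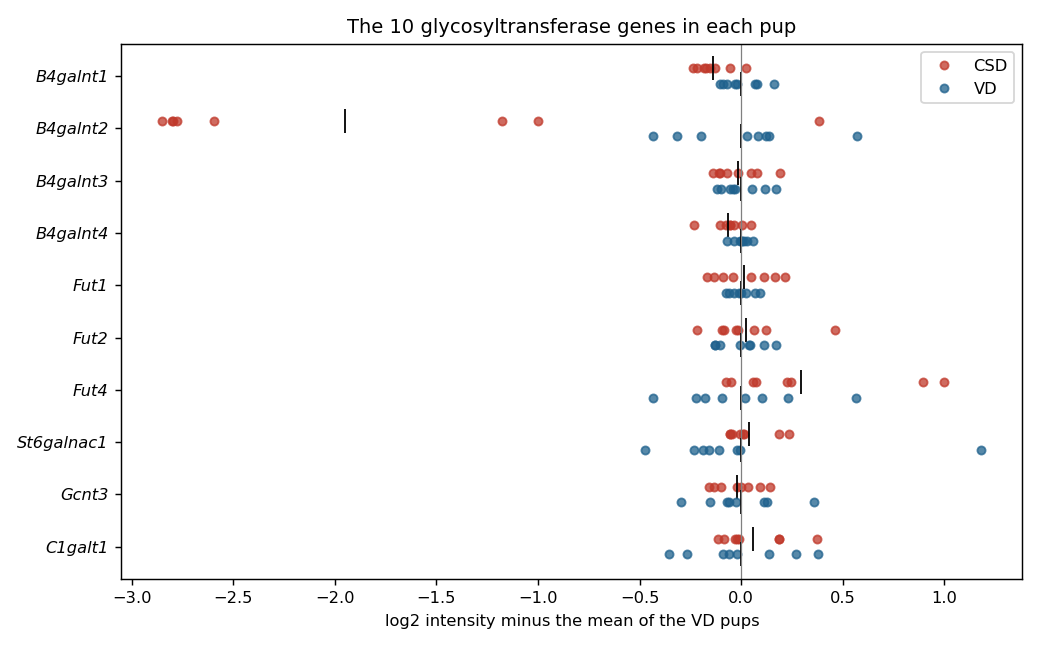
Log2 intensity of the 10 genes in each pup minus the mean of the 8 VD pups (points, CSD in red and VD in blue, vertical lines for group means). B4galnt2 spreads over the CSD pups from its VD range down to 5 pups far below, and the other 9 genes overlap between the groups, with VD pup 5 apart in St6galnac1.

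In the contrasts that the choice of genes had not used, no member passed the test over all genes. The nearest was Gcnt3 between the VD litters. It had 10.13, 10.27, 10.36, 10.37 and 10.40 in pups 9, 10, 4, 5 and 11 of mother 5 and 10.55, 10.54 and 10.79 in pups 6, 7 and 8 of mother 6. The litters did not overlap, with a difference of -0.33 (SE 0.09, adjusted p = 0.110, limma; exact permutation p = 0.0179, the smallest that 5 against 3 pups allow). Gcnt3 is named here as the most extreme of the 10 genes, and the permutation p is not adjusted for that. The share of all genes whose VD litters do not overlap was not counted. Mother 6 had males only, which the limma model adjusts for and the permutation test does not. Fut1 was higher in females by 0.16 (SE 0.04), with 6 females between 6.99 and 7.25 and 10 males between 6.86 and 7.08 (exact permutation p = 0.00175, adjusted p = 0.458 over all genes, limma). St6galnac1 was higher in females by 0.36 (SE 0.16, exact permutation p = 0.0130, adjusted p = 0.756, limma), where the female VD pup 5 is the highest pup. These permutation tests take neither delivery mode nor litter into account, and the groups differed in their share of females. Between the sexes 22 genes (0.0599%) and for the interaction 1 gene (0.00272%) were under an adjusted p of 0.05 on the whole array. Litters of each mode, sex and the interaction were tested for all 10 genes.

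The genes of glycan synthesis around these members were taken from 7 lists with 121 symbols, of which 117 were on the array. Of the 117 genes, 4 were called between CSD and VD pups (adjusted p under 0.05, limma), which is 3.42% against 1.25% of all genes, with 2 higher and 2 lower in CSD. The median log2 fold change over the 117 genes was 0.01 and over all genes 0.00. Galnt7, a polypeptide N-acetylgalactosaminyltransferase that acts on partly glycosylated peptides, was higher in CSD by 0.28 (SE 0.06, adjusted p = 0.0442, limma), with 11.15 to 11.64 in CSD and 10.89 to 11.14 in VD pups. Fut8, the fucosyltransferase of the N-glycan core, was higher by 0.27 (SE 0.06, adjusted p = 0.0364, limma), with 9.62 to 9.92 in CSD and 9.26 to 9.61 in VD pups. St8sia4, a polysialyltransferase, was lower by -0.32 (SE 0.05, adjusted p = 0.00903, limma), with 7.49 to 7.89 in CSD and 7.89 to 8.21 in VD pups. In these 3 genes the groups did not overlap, which held for 0.493% of all genes.

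Chst2, a sulfotransferase of N-acetylglucosamine, was lower by -0.30 (SE 0.07, adjusted p = 0.0381, limma), with 7.37 to 7.67 in CSD and 7.67 to 8.01 in VD pups, and 6 of 8 CSD pups lay under the lowest VD pup. The differences of Galnt7, Fut8, St8sia4 and Chst2 kept their direction in all 37 alternatives, and passed the test in 8, 13, 29 and 16 of them. With litter means as samples, males only, either slide alone, or the number in the titles as a block, none of the 4 was called. By role, 1 of 19 genes that begin O-glycans was called (Galnt7, higher), 1 of 14 of fucosylation (Fut8, higher), 1 of 23 of sialylation (St8sia4, lower) and 1 of 15 of sulfation (Chst2, lower).

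Lists for the cores of O-glycans (6 genes), for chain extension and branching (24 genes) and for the supply of nucleotide sugars (16 genes) had 0 called genes, with 1, 4 and 5 genes at an unadjusted p under 0.05 in limma (5307 of all 36711 genes). In the first, Gcnt1, a branching enzyme of mucin cores, had 0.35 (SE 0.14, adjusted p = 0.235) and B3gnt6, which makes the core typical of the colon, -0.11 (SE 0.06, adjusted p = 0.446). Of the extension enzymes B3gnt8 had -0.28 (SE 0.07, adjusted p = 0.0547) and Gcnt2, which makes branched I antigen, 0.24 (SE 0.07, adjusted p = 0.0933). Pgm3, of the pathway to UDP-N-acetylglucosamine, had 0.20 (SE 0.06, adjusted p = 0.0874) and the transporter Slc35d2 had -0.18 (SE 0.05, adjusted p = 0.0958). None of these 6 passed the test. Over the 37 alternatives B3gnt8 passed in 5, Pgm3 in 4, Gcnt2 in 3, Slc35d2 in 2, and Gcnt1 and B3gnt6 in 0. Between the CSD litters 0 of the 117 genes were called. Between the VD litters 1 of the 117 was called, where 0.874% of all genes were, so nothing is read from this count. It was Gal3st4, a galactose sulfotransferase (0.41 higher with mother 5, adjusted p = 0.0387, limma), named after its value was seen.

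**Figure D3:**
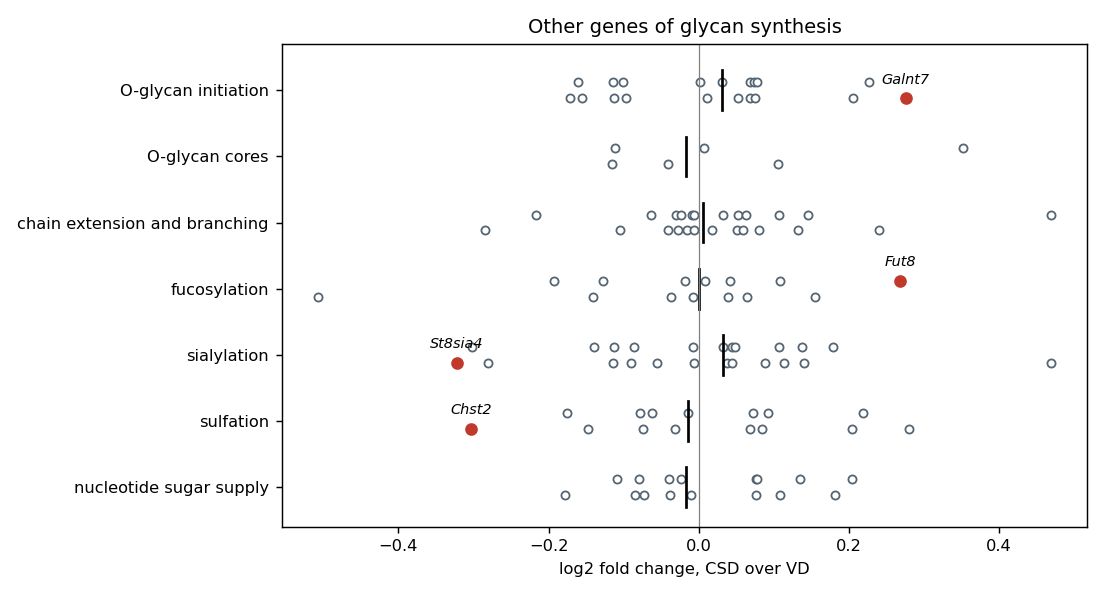
Log2 fold change of CSD over VD, adjusted for sex, for 117 other genes of glycan synthesis in 7 lists (1 point per gene, filled where called by limma, black lines for list medians). The 4 called genes are Galnt7 and Fut8 (higher) and St8sia4 and Chst2 (lower), and list medians lie near 0.

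Genes next to B4galnt2 on chromosome 11 were set beside it. Within 500 kb of the probes 53 genes were measured, and 0 of them were called between CSD and VD pups by limma, although 17 had an unadjusted p under 0.05 (5307 of 36711 genes in all). They were evenly split (27 higher and 26 lower in CSD), with a median log2 fold change of 0.00. On the side of lower coordinates the nearest were Gngt2, a G protein subunit (-0.13, SE 0.10, adjusted p = 0.592), and Abi3, an actin regulator of blood cells (-0.58, SE 0.22, adjusted p = 0.218). On the other side were 4833417C18Rik, with a probe between those of B4galnt2 on the opposite strand, which was not above background in any pup (0.07, SE 0.03, adjusted p = 0.347), and the RNA-binding protein gene Igf2bp1 at 96.3 kb (0.44, SE 0.11, adjusted p = 0.0614), which was under 0.05 in 4 of 37 alternatives. Between the CSD litters, 0 of the 53 were called, where 0.0872% of all genes were. Between the VD litters, a transcript with no gene name 70.3 kb away was called (0.67 higher with mother 5, SE 0.13, adjusted p = 0.0274, limma). It was named after its value was seen, and 0.874% of all genes were called there.

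**Figure D4:**
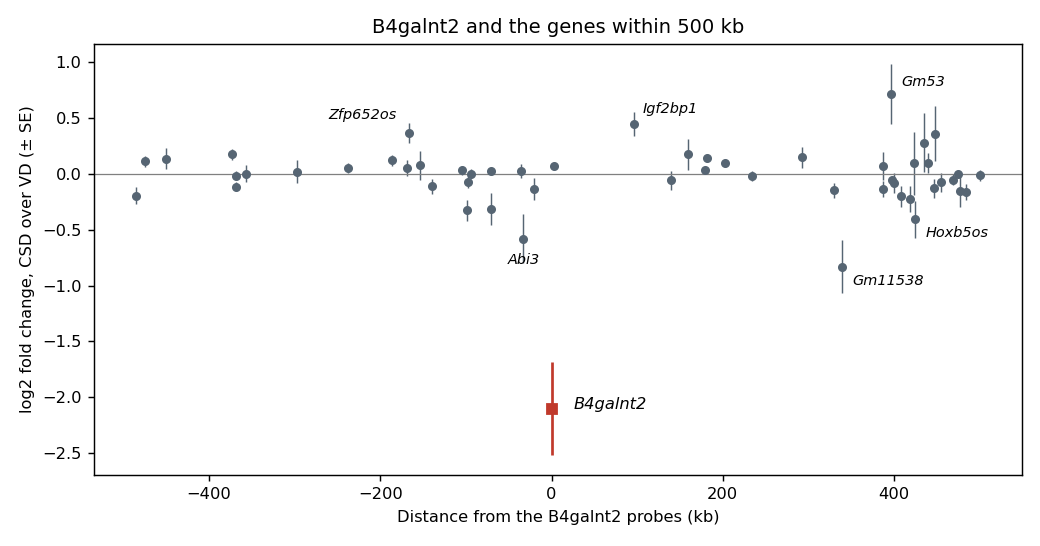
Log2 fold change of CSD over VD (points, bars for SE) of B4galnt2 and 53 genes within 500 kb against distance from the B4galnt2 probes in kb. B4galnt2 lies at -2.10 and the lowest neighbour, Gm11538, at -0.83.

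Genes were then compared with B4galnt2 by their pattern over the 16 pups, which contains the difference between the groups. Among the 21441 genes that stood well above background in all pups of either group, 26 genes (0.121%) had a Pearson r with B4galnt2 over 0.8 or under -0.8 over the 16 pups. Of those 26, 6 were among the 40 compared genes within 500 kb (15%). They ran in both directions. Gm11538 (r = 0.93), a transcript with no gene name (0.89) and Hoxb5os (0.82) followed B4galnt2, while Zfp652os (-0.85), Gm53 (-0.84) and Ube2z (-0.80) ran opposite to it. Hoxb5os, Gm53 and Ube2z were named after their values were seen. Zfp652os passed the filter only through the CSD pups, where it is high, so nothing is read from the share. The median absolute r was 0.40 in the 40 genes and 0.25 in all. These correlations share pups, litters and arrays, and the CSD pups fall into a low set and others.

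The gene most like B4galnt2 was Gm11538, a non-coding RNA 338.8 kb away (r = 0.93 over 16 pups and 0.88 after group means were removed). It had 8.31, 8.49, 8.41 and 8.26 in CSD pups 1, 2, 6 and 7 and 9.81, 9.25, 8.45 and 9.20 in CSD pups 3, 5, 8 and 9, against 9.16 to 10.14 in VD pups. As with B4galnt2, the litter of mother 4 and pup 8 of mother 3 were the 5 lowest of all pups, apart from the rest. Next came a transcript with no gene name 98.1 kb away on the other side (r = 0.89), which had 10.33, 10.40, 10.22, 10.29 and 10.23 in CSD pups 1, 2, 6, 7 and 8 and 10.47 to 10.97 in all others. The same 5 pups were the lowest, which restates the choice of both by their r with B4galnt2 over these pups. Gm11538 differed between the CSD litters by 0.81 (SE 0.22, adjusted p = 0.283, limma), which did not pass.

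**Figure D5:**
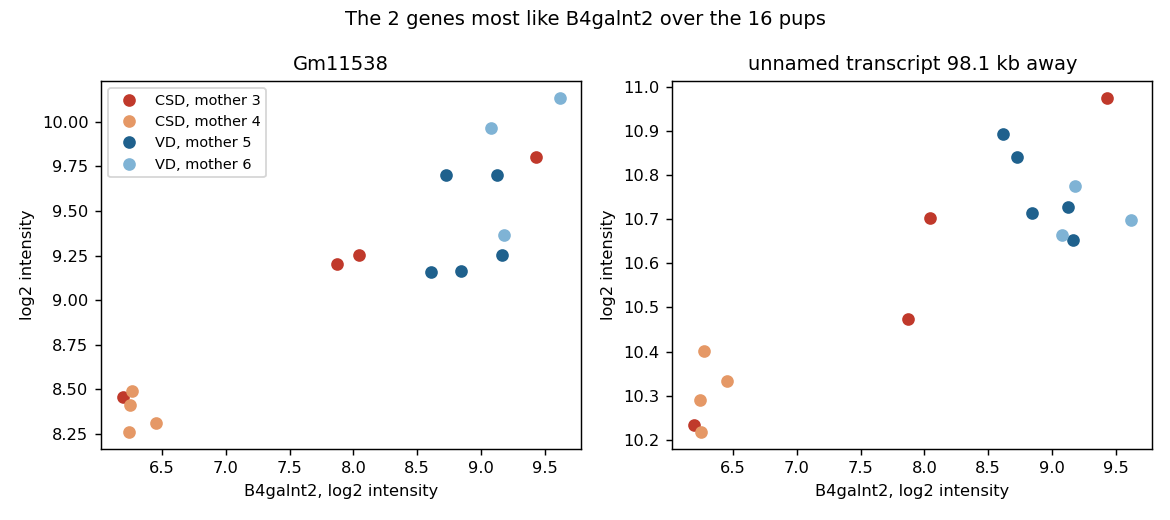
Log2 intensity of Gm11538 (left) and of the transcript 98.1 kb away (right) against that of B4galnt2, 1 point per pup, coloured by litter. The 4 pups of mother 4 and 1 pup of mother 3 form the low end in both panels.

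Ypel5 on chromosome 17 (r = 0.84), the receptor gene Insrr on chromosome 3 (r = 0.83) and Samd14 on chromosome 11 at 840.6 kb (r = 0.82) followed. Chromosome 11 held 3 of the 5 and 6 of the 20 genes most like B4galnt2, and 2 of the 20 most like it once group means were removed, where it holds 7.68% of the genes compared. Not all of the 6 are close to B4galnt2. Vamp2 lies 26822.2 kb and Olfr1372-ps1 43759.4 kb away, both named after their values were seen. The most opposite genes were Gm10369 on chromosome 5 (r = -0.92), an unnamed transcript (ENSMUST00000121653) on chromosome 2 (r = -0.87) and St13, a co-chaperone gene on chromosome 15 (r = -0.86). The fourth, Zfp652os at 166.3 kb (r = -0.85), was named after its value was seen, and was highest in the 5 pups that were lowest in B4galnt2 (6.93 to 7.19). These 5 were not set apart, since CSD pup 5 followed at 6.917, next to CSD pup 2 at 6.926. Gm10369 and Zfp652os passed the filter only through the CSD pups, where they are high (above background in 7 of 8 and 6 of 8 VD pups). Nothing is read from their opposite pattern to B4galnt2, which was above background in 5 of 8 CSD and 8 of 8 VD pups. When group means were removed, Spata33 (0.89), Gm11538 (0.88), Vcp (0.88), Caprin2 (0.86) and ENSMUST00000120050 (0.86) were most like it, and of these Gm11538 was the only one also among the first 5 over all pups.

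Cell type markers were set beside these values. All 9 epithelial genes (most abundant Krt8), 6 colonocyte genes (Aqp8) and 7 goblet cell genes on the array (Zg16) were well above background on all arrays, and the distal hindgut genes Hoxa13, Hoxb13, Hoxd12 and Hoxd13 as well. Of the 8 small intestine markers Apoa1, Apoa4, Sis and Lct were above background on no array, whereas Fabp2 (the most abundant), Fabp6 and Mttp were on all 16 arrays and Alpi on some. Fabp2 was at 11.92 ± 0.51 in CSD and 11.23 ± 0.45 in VD pups (SD, n = 8 each), a difference of 0.63 (SE 0.24, adjusted p = 0.207, limma) that did not pass. Of the 6 pancreas markers Prss2, Pnlip and Amy2a5 were above background on no array, whereas Cela1 (the most abundant, at 14.58 ± 0.25 in CSD and 14.61 ± 0.26 in VD pups, SD, n = 8 each) and Ctrb1 were on all 16 arrays. The summed intensity of the epithelial list was 547470 to 760500 in CSD and 564161 to 725794 in VD pups. Epithelial, colonocyte and goblet cell lists had median log2 fold changes of 0.08, 0.17 and 0.18, with 7 of 9, 6 of 6 and 6 of 7 genes higher in CSD and 0 called by limma (1, 1 and 3 at an unadjusted p under 0.05, against 5307 of all 36711 genes). The mean log2 of the epithelial list was 15.26 in the litter of mother 3, 15.15 in that of mother 4 and 15.16 in that of mother 5, and it was lowest in the litter of mother 6.

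No gene of the lists for other cells was called by limma, and at an unadjusted p under 0.05 were 2 endothelial, 3 B and plasma cell, 2 Paneth cell, 0 smooth muscle and 0 neuron and glia genes, of 6, 5, 5, 6 and 6 on the array and against 5307 of all 36711 genes. All 6 endothelial genes were lower in CSD (mean log2 of the list 8.42 ± 0.10 against 8.56 ± 0.07, SD, n = 8 each, most abundant Emcn) and all 5 B and plasma cell genes on the array (8.93 ± 0.54 against 9.64 ± 0.36, SD, n = 8 each, most abundant Cd79b). Between the CSD litters of mothers 3 and 4, the mean log2 of the list was 8.69 and 9.17 for B and plasma cells, 8.38 and 8.47 for endothelium, 10.18 and 9.51 for Paneth cells and 13.54 and 13.39 for smooth muscle, with no test of these differences. The summed intensity of the B and plasma cell list was 2090 to 10482 in CSD and 4800 to 8992 in VD pups. The summed intensity of the endothelial list was 2194 to 2853 in CSD and 2586 to 3079 in VD pups. Paneth cell genes (5 of 7 on the array, most abundant Lyz1 over the 16 pups, with Itln1 above it in CSD) had a mean log2 of 9.85 ± 0.62 in CSD and 8.86 ± 0.75 in VD pups (SD, n = 8 each). Of the 5, Itln1 (13.97 ± 2.14 against 11.33 ± 3.11), Pla2g2a (8.70 ± 2.07 against 6.51 ± 0.79), Defa24 (6.94 ± 0.65 against 6.54 ± 0.19) and Mmp7 (6.28 ± 0.10 against 6.17 ± 0.09) had higher means in CSD and Lyz1 (13.34 ± 0.39 against 13.74 ± 0.22) a lower one (SD, n = 8 each). Pla2g2a was well above background in 8 of 8 CSD and 1 of 8 VD pups, so its VD mean is near the floor, and Mmp7 in 1 of 8 CSD and 0 of 8 VD pups. Smooth muscle genes (most abundant Tagln) were lower in 5 of 6 and neuron and glia genes (most abundant S100b) higher in 5 of 6. Over the 8 CSD pups, which share litters and arrays, the Pearson r of a list's mean log2 with B4galnt2 was -0.64 for endothelium, 0.50 for Paneth cells, -0.25 for B and plasma cells, -0.02 for epithelium, -0.12 for colonocytes, 0.03 for goblet cells, 0.08 for smooth muscle and -0.11 for neurons and glia, given as a description. Over all 16 pups, which adds the difference between the groups, r was 0.28, -0.25, 0.35, -0.37, -0.40, -0.45, 0.33 and -0.03 in the same order. Beyond these values, the part of these cells in the values of B4galnt2 and its relatives was not tested.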

How the data were processed

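Labels gave the delivery mode, mother, sex and number of a pup, and the array files its slide. The authors deposited scanner output with a mean, a background and a scanner-corrected intensity per spot, with detection marks, and a matrix of 27036 genes in log2 units that the authors made with limma 3.38. The scanner output names another array design than the paper's methods, and the kind of background correction is not given in the sources used here. From the scanner output, normexp correction (offset 50), log2 values, quantile normalization, a filter (56366 of 56605 probes, those that exceeded the lowest 5% of an array on 4 arrays or more) and averaging by gene were run with limma 3.58.1 in R 4.3.3, without control spots and spots marked as outliers. On 27022 shared genes the matrix had a correlation of 0.977 with these values, and it served as an alternative.

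Genes were fitted by limma (lmFit, eBayes) on delivery and sex, with mother as random effect (duplicateCorrelation, consensus 0.015), with Benjamini-Hochberg adjustment over all genes, at 5%. Litters were compared with mother as a fixed factor of 4 levels. Exact permutation tests were two-sided and used all assignments (70 for 4 against 4, 56 for 5 against 3, and all assignments of 6 females against 10 males, without delivery or litter). A gene was named where it was 1 of the 10 members, called in its glycan list or else 1 of the 2 with the smallest p there, 1 of the 2 nearest neighbours on a side, 1 of the 5 most like B4galnt2 over all pups or after group means were removed, or of the 3 most opposite, or the most abundant of a marker list. Other marker genes were named for their detection or level, after their values were seen. The members and lists were chosen with earlier results of these data known. Alternatives were the background correction, scaling, filter, probe choice, deposited matrix, covariates, slide, eBayes settings, blocking on the number in the titles, and 1 pup or litter left out at a time. Positions are those of the array files (mm9). Plots were drawn with matplotlib 3.10.9.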

Additional observations from a re-analysis of the deposited data

Results flagged for a closer look

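In 78 sets of values, each of 1 gene or probe in the 8 pups of a delivery group, 5 had a pup set apart from the others by a gap of more than Dixon's critical share of the range, where chance gives about 5%. St6galnac1 was at 10.78 in VD pup 5, and its probe A_55_P2118604 at 8.90 in the same pup, where the next VD pup was at 6.72. The upstream probe of B4galnt2 (A_51_P404405) was at 7.23 in CSD pup 3, above the next CSD pup at 6.40. In the same pup the probe A_52_P97889 of B4galnt4 was at 6.45, and no other array had that probe above background. Galnt7 was at 11.64 in CSD pup 2, with the next CSD pup at 11.33.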

How the results depend on the processing

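B4galnt2 was lower in CSD in all 39 alternatives, from -0.70 (upstream probe alone) to -3.74 (scanner-corrected intensity with quantile normalization), with -3.67 for that intensity minus the 75th percentile, -3.00 with offset 0, -2.99 in the deposited matrix, -3.50 with the brightest probe or the downstream probe alone, and -2.33 to -1.97 when 1 pup was left out. Of the other members, B4galnt3 kept its sign in 17 of 37 alternatives, St6galnac1 in 29, and Fut2 and Gcnt3 in 27. The counts of called genes and of called glycan genes (460 and 4) were 102 and 1 with offset 0, 243 and 1 with offset 16, 177 and 1 or 164 and 1 with the scanner-corrected intensity (quantile or percentile), 170 and 2 in the matrix, 992 and 10 without sex, 0 and 0 with litter means, 0 and 0 with males only, and 11 and 0 or 0 and 0 on slide 1 or 2 alone. Without the litters of mothers 3, 4, 5 and 6 in turn they were 212, 138, 189 and 2265 genes and 1, 1, 0 and 13 glycan genes. Leaving out 1 pup gave 145 (without VD pup 4) to 617 (without VD pup 7) genes and 1 to 5 glycan genes. With the number in the titles as a block, over the 5 numbers that both groups share, 0 and 0 were called and B4galnt2 had -2.26. The numbers do not pair the pups (2 of 5 correlations over 0.1, 2 of 5 pups most like their own number). The litter difference of B4galnt2 in CSD ran from 1.14 to 2.08 without 1 pup and passed only without CSD pup 8. Genes called between the CSD litters (32) were 21 with offset 0, 60 with the stricter filter, 69 with the brightest probe and 23 to 44 without 1 pup, and between the VD litters (321) 128 with offset 0, 150 and 109 with the scanner-corrected intensity and 77 (without VD pup 9) to 370 without 1 pup, with 80, 115, 119 and 144 without VD pups 8, 7, 6 and 10. 4833417C18Rik turned to -0.020 with its brightest probe. The causes were not tested. Log2 intensities near background compress differences, and 2 litters per mode limit every comparison of delivery modes.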
